A study of Homo sapiens with 15 samples.

Results

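The epidermal growth factor (EGF) receptor family was examined in MDA-MB-231, a human claudin-low, triple-negative breast cancer cell line, through 2 histone marks, H3K4me3, found at promoters in use, and H3K27ac, found at both promoters and enhancers in use. The 10 genes were EGFR, ERBB2, ERBB3 and ERBB4, which encode the receptors, and HBEGF, EREG, AREG, TGFA, BTC and NRG1, which encode ligands. For H3K4me3, peaks within 2 kb of any annotated transcript start of a gene were taken, which gave 12 of 22572 consensus peaks. For H3K27ac, peaks within 100 kb of a start were taken where the nearest protein-coding start belonged to a listed gene, which gave 105 of 62195 peaks. They comprised 34 at NRG1, 28 at EGFR, 14 at TGFA, 6 each at BTC and ERBB4, 5 at HBEGF, 4 at EREG, 3 each at AREG and ERBB3, and 2 at ERBB2.

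The parental line (Par) was compared with LM2 and BrM2, sub-populations selected from it in mice for colonization of lung and brain. No group carried a drug or an engineered gene change named in the labels, and all were grown for 3 days with 10% serum and fixed in 1% formaldehyde. Each line had 2 replicates per mark, 12 libraries in all. Each line is 1 selected population, so differences between lines are differences between these populations.

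Binding of a ligand drives receptor dimerization, phosphorylation of the receptor tails and signalling through the MAPK and PI3K pathways. EGFR binds HBEGF, EREG, AREG, TGFA and BTC, whereas NRG1 acts through ERBB3 and ERBB4. ERBB2 has no known soluble ligand and serves as a dimerization partner, and ERBB3 has little kinase activity. Most of the ligands are made as membrane-anchored precursors that metalloproteases such as ADAM17 release. EGFR is known to be abundant in triple-negative breast cancer cells, whereas ERBB2 is the receptor amplified in another subtype.

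The promoters of EGFR, EREG and AREG are shown because they span the range from the highest to the lowest H3K4me3 level. Each run is the 250 bases before the canonical start in hg19, with capitals for matches to the GC box GGGCGG, the TATA box TATAAA, the AP-1 motif TGANTCA and the cyclic AMP response element TGACGTCA, searched on both strands.
EGFR promoter, chr7:55086460-55086709, plus strand: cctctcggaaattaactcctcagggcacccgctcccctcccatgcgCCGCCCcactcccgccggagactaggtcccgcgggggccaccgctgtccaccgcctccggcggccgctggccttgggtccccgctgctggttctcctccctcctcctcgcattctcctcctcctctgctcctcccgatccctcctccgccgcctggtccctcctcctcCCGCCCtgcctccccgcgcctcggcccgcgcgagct
EREG promoter, chr4:75230612-75230861, plus strand: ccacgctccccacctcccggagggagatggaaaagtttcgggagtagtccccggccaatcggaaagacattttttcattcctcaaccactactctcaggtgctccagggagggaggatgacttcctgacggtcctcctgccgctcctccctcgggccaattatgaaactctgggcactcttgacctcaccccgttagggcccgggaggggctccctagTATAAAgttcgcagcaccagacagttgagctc
AREG promoter, chr4:75310603-75310852, plus strand: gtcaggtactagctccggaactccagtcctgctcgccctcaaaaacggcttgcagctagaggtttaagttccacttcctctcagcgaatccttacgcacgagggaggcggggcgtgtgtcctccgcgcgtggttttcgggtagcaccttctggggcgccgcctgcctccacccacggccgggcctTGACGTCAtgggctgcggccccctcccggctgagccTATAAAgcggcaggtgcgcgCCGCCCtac
A GC box match stood in 6 of the 10 promoters, EGFR, ERBB4, HBEGF, AREG, TGFA and NRG1, against 59.2% of 19862 protein-coding promoters of the same length. A TATA box match was found only at EREG and AREG among the 10, beginning 32 and 29 bases before the start, against 9.26% of all promoters. AREG also held the only TGACGTCA match of the 10, 65 bases before its start, with 2.40% of all promoters holding one. The only TGANTCA match was at ERBB3, against 4.70% of all promoters. These matches describe the letters in the window and not bound sites.

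All 10 H3K27ac peaks called different between lines lay more than 2 kb from any start of a protein-coding gene. A stretch of 150 bases around AP-1 matches, outside annotated exons, is shown for 3 of the peaks that the results turn on, with TGANTCA matches in capitals.
EGFR peak 227 kb past the start, chr7:55315337-55315486, plus strand: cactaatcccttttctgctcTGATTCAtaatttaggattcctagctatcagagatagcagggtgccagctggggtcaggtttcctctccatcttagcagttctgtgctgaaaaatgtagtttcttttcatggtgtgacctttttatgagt
EGFR peak 35 kb past the start, chr7:55120553-55120702, plus strand: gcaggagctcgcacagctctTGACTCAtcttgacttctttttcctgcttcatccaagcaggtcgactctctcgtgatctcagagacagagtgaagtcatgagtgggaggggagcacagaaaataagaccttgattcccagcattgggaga
EREG peak 30 kb past the start, chr4:75258001-75258150, plus strand: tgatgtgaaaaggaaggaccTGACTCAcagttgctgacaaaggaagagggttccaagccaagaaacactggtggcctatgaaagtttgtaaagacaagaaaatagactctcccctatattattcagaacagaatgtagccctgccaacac
Over the 86 peaks of the family beyond 2 kb of a start TGANTCA occurred 0.508 times per kb, against 0.441 per kb over all H3K27ac peaks. Over the 10 called peaks the density ranged from 0.122 to 1.59 per kb. It was 0.881 in the EGFR peak 35 kb past the start, 0.865 in the one at 227 kb and 0.614 in the EREG peak. The ERBB4 peak (1.59) and the EGFR peak at chr7:55051841-55055862 (0.497) also lay above the value of all peaks. Below it lay the EGFR peaks at chr7:55219122-55227371 (0.364) and chr7:55034085-55039933 (0.342), the NRG1 peak (0.399) and both AREG peaks (0.296 and 0.122).

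Every one of the 10 genes had an H3K4me3 peak within 2 kb of a start, at levels that differed widely. Levels are in CPM, the counts of a peak per 1000000 counts in all peaks of the library. Per kb of peak, EGFR had the highest mean over the 6 libraries, 45.6, with a range of 35.2 to 55.2. ERBB2 followed at 41.6 (37.6 to 48.2), and the ranges of these receptors overlapped. Both lay among the higher peaks of the mark, above 93.2% and 90.3% of all H3K4me3 peaks.

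HBEGF (26.6), NRG1 (23.5), TGFA (22.9) and ERBB4 (22.3) formed a middle group on this H3K4me3 level scale, each overlapping the next in range. The lowest library of ERBB2, at 37.6, stood above the highest of HBEGF, at 29.5, and this was the only gap between neighbours in the order. BTC (17.8), ERBB3 (16.1), EREG (11.6) and AREG (5.78) were lowest, and their ranges overlapped from one to the next. EREG and AREG encode epiregulin and amphiregulin, neighbouring genes on chromosome 4.

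The AREG level is uncertain. Of the 3952 stretches of 50 bases within 2 kb of its start, 90.3% had an exact copy at chr4:75478621-75482612 in hg19, where the annotation places a second gene copy, AREGB. No such stretch had a copy within 2.5 Mb at EGFR, ERBB4, TGFA, BTC, HBEGF or NRG1, and the share was at most 1.87% at ERBB2, ERBB3 and EREG. Reads from the copies cannot be told apart, the AREG peak spanned only 375 bp with 8 to 18 raw counts per library, and no H3K27ac peak was assigned within 2 kb of the AREG start.

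**Figure D1:**
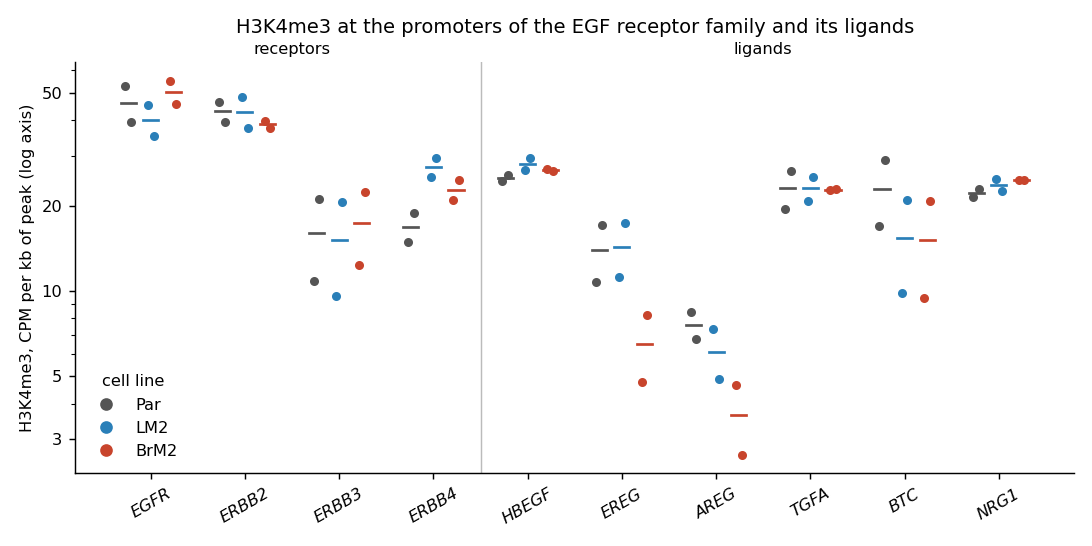
H3K4me3 at the start of each of the 10 genes, in CPM per kb of peak on a log axis. Points are the 2 libraries of each line and bars their mean; EREG in BrM2 sits at 4.78 and 8.22, below every Par and LM2 library of that gene.

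H3K4me3 at EREG was lower in BrM2 than in both other lines. No other promoter of the family passed the test that leaves out the replicate number. The peak, chr4:75229808-75233092, covers the start, exon 1 and part of intron 1. CPM of replicates 1 and 2 were 35.2 and 56.3 for Par, 36.7 and 56.9 for LM2, and 15.7 and 27.02 for BrM2. Both BrM2 libraries lay below all 4 others, although replicate 2 was higher than replicate 1 in every line. DESeq2 gave a log2 fold change of -1.16 ± 0.37 (SE) for BrM2 against Par (adjusted p = 0.0477) and -1.22 ± 0.37 for BrM2 against LM2 (adjusted p = 0.033), and 0.06 ± 0.36 for LM2 against Par.

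Of the 12 H3K4me3 peaks, 0 were called at an adjusted p under 0.05 by DESeq2 for LM2 against Par (1 at an unadjusted p under 0.05, and 0 by edgeR, both without the block), where 2.51% of tested peaks were called, and 1 each for BrM2 against Par (3.61%) and BrM2 against LM2 (3.18%). With the replicate number as a block the counts were 1, 2 and 2, where 14.4%, 17.7% and 22% of all peaks were called, so the blocked counts were no larger than those shares would give. The added calls were ERBB4 in LM2 against Par, BTC in BrM2 against Par and EGFR in BrM2 against LM2. At EREG, DESeq2 with the block gave an adjusted p of 9.41e-07 for BrM2 against Par and 9.57e-08 for BrM2 against LM2. The EREG calls were lost when any of the 6 libraries was left out, at log2 fold changes of -1.43 to -0.92 against Par (adjusted p up to 0.661) and -1.49 to -0.98 against LM2. The median H3K4me3 log2 fold change of 20 other peaks within 2.5 Mb was -0.39 for BrM2 against Par, and after removal of 5 Mb window medians the EREG value was -0.74 (adjusted p = 0.631).

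ERBB4, the receptor whose promoter differed most among the receptor genes, held 44.4 and 56.3 CPM of H3K4me3 in Par and 75.7 and 88.3 in LM2, compared with 62.4 and 73.6 in BrM2. The groups did not overlap between any of the lines. LM2 against Par gave a log2 fold change of 0.74 ± 0.31 (adjusted p = 0.323, and 7.39e-05 with the replicate block).

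BTC, which encodes betacellulin, held 25.8 and 44.1 CPM of H3K4me3 in Par, 14.9 and 31.8 in LM2 and, for BrM2, 14.4 and 31.6. For BrM2 against Par the log2 fold change was -0.67 ± 0.43 (adjusted p = 0.707, and 0.0273 with the block). In CPM, replicate 2 of LM2 and of BrM2 lay above replicate 1 of Par. On counts scaled by the DESeq2 size factor of each library, BrM2 (87.0 and 159) lay below Par (165 and 228). LM2 (99.1 and 166) overlapped Par on that scale.

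EGFR itself held 291 and 218 CPM of H3K4me3 in Par and 249 and 194 in LM2, compared with 304 and 251 in BrM2, with overlapping groups. Its log2 fold change was 0.22 ± 0.38 for BrM2 against LM2 (adjusted p = 0.964, and 0.0431 with the block). At ERBB2, ERBB3, HBEGF, TGFA and NRG1 no comparison passed the test with or without the block. Of the 3 H3K4me3 peaks taken for ERBB2, one also covers the start of PGAP3 and one that of MIEN1, so only the peak at the canonical start was read for ERBB2.

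At 9 of the 10 genes the H3K4me3 peak shared bases with an H3K27ac peak at the start, AREG being the exception. The order of the H3K27ac promoter levels per kb was EGFR (18.0), ERBB2 (11.5), NRG1 (9.99), EREG (7.30), HBEGF (5.95), TGFA (5.35), BTC (5.24), ERBB4 (4.86) and ERBB3 (4.29), and each range overlapped the next. The ERBB2 value is that of the peak shared with PGAP3, which was slightly higher in total than the peak at the canonical ERBB2 start.

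Over all 105 H3K27ac peaks, 2 were called for LM2 against Par, 1 higher and 1 lower, among 75 with an adjusted p. For BrM2 against Par 7 of 78 were called, 5 higher and 2 lower, and for BrM2 against LM2 4 of 72, 3 higher and 1 lower. The shares of all tested peaks called were 3.63% (2.72% higher, 0.907% lower), 5.29% (3.62% and 1.67%) and 2.94% (1.71% and 1.22%). The share called in the family was thus below that of all peaks for LM2 against Par and above it in the other two comparisons, and 8 of these 13 calls were at EGFR. With the replicate block the counts were 4, 11 and 9, against 5.44%, 8.13% and 6.17% of all peaks. Only peaks that passed the independent filter on low counts could be called (75, 78 and 72 without the block, and 75, 75 and 63 with it), so these are not shares of all 105.

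Overlap of groups across peaks was scored on counts scaled by the DESeq2 size factor of each library, not on CPM. The groups did not overlap in 28 higher and 33 lower H3K27ac peaks of the family for LM2 against Par, where 21.7% and 21.6% of all peaks did so. For BrM2 against Par the counts were 36 and 26 (24.9% and 25.4%), and for BrM2 against LM2 33 and 21 (22.6% and 24.5%). The median log2 fold change of the 105 was 0.03, 0.16 and 0.12 in the 3 comparisons, against -0.02 over all peaks in each. As shares of the 105, 4 of these 6 counts lay above those of all peaks and 2 below, a difference that was not tested.

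H3K27ac around EGFR was higher in BrM2 at several peaks spread from upstream of its start to beyond its end, and in LM2 at 1 of them. The largest difference was at chr7:55219122-55227371, a peak of 8250 bp that spans exons 6 to 11, 137 kb past the canonical start. It held 9.81 and 9.40 CPM in Par, 43.0 and 33.0 in LM2 and, for BrM2, 63.5 and 65.2. The 3 lines formed separate steps with no overlap between any of them.

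Against Par, H3K27ac at this EGFR peak was 3.79-fold higher in LM2 (log2 1.92 ± 0.34, adjusted p = 4.74e-06) and 6.70-fold higher in BrM2 (log2 2.74 ± 0.34, adjusted p = 9.27e-13). Between BrM2 and LM2 it was 0.82 ± 0.31 (adjusted p = 0.133, and 0.0362 with the block). After removal of 5 Mb window medians the log2 difference between BrM2 and LM2 was 0.002. Both calls against Par held under every alternative fit, including each left-out library, with log2 values of 1.74 to 2.34 in LM2 and 2.35 to 2.78 in BrM2. The peak was assigned to EGFR through the start of a shorter transcript inside the gene, and it lies outside 100 kb when only the gene's 5-prime end is used.

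A second EGFR peak, chr7:55311368-55315992, lies 227 kb past the start, downstream of the gene and over ELDR, a long non-coding RNA gene. The peak was assigned to EGFR through a transcript start inside the gene, and it lies outside 100 kb of the canonical start. It held 9.12 and 8.35 CPM in Par and 16.7 and 13.6 in LM2, compared with 38.0 and 38.6 in BrM2. The lines again did not overlap. BrM2 was 4.38-fold above Par (log2 2.13 ± 0.38, adjusted p = 3.36e-06), a call that held under every alternative fit, and 2.63-fold above LM2 (log2 1.40 ± 0.35, adjusted p = 0.00661).

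The third, chr7:55116721-55125799, lies in intron 1. It held 19.6 and 23.2 CPM in Par, 21.9 and 32.7 in LM2 and, for BrM2, 56.3 and 55.6, so that BrM2 stood apart from both other lines. BrM2 was 2.62-fold above Par (log2 1.39 ± 0.34, adjusted p = 0.00216) and 2.16-fold above LM2 (log2 1.11 ± 0.33, adjusted p = 0.033). The call against Par was lost without Par replicate 1 (log2 1.27, adjusted p = 0.0996) and without BrM2 replicate 1 or 2 (adjusted p = 0.148 and 0.0804).

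Upstream of EGFR, 2 further peaks were called, which are named here after their values were seen. At chr7:55034085-55039933, at -49.7 kb from the start, the Par libraries held 18.7 and 14.4 CPM, the LM2 libraries 14.4 and 21.3 and the BrM2 libraries 37.2 and 37.6 (log2 1.18 ± 0.37 for BrM2 against Par, adjusted p = 0.0303). At chr7:55051841-55055862, at -32.9 kb, the Par libraries held 25.3 and 20.9 CPM, the LM2 libraries 16.7 and 18.6 and the BrM2 libraries 42.1 and 39.6 (log2 1.28 ± 0.33 for BrM2 against LM2, adjusted p = 0.00897). In both, the BrM2 libraries lay above all 4 others. At the first, BrM2 against LM2 was called with the block (adjusted p = 0.0144) and by edgeR without it, but not by DESeq2 without it (log2 1.15 ± 0.36, adjusted p = 0.0518). The first call was lost without any 1 of the 6 libraries (log2 1.01 to 1.38, adjusted p = 0.0559 to 0.400). The 3 EGFR calls against LM2 were each lost without any 1 of the LM2 and BrM2 libraries (log2 0.82 to 1.54, adjusted p = 0.0600 to 0.650), and the intron 1 call also without either Par library (adjusted p = 0.0616 and 0.0561).

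**Figure D2:**
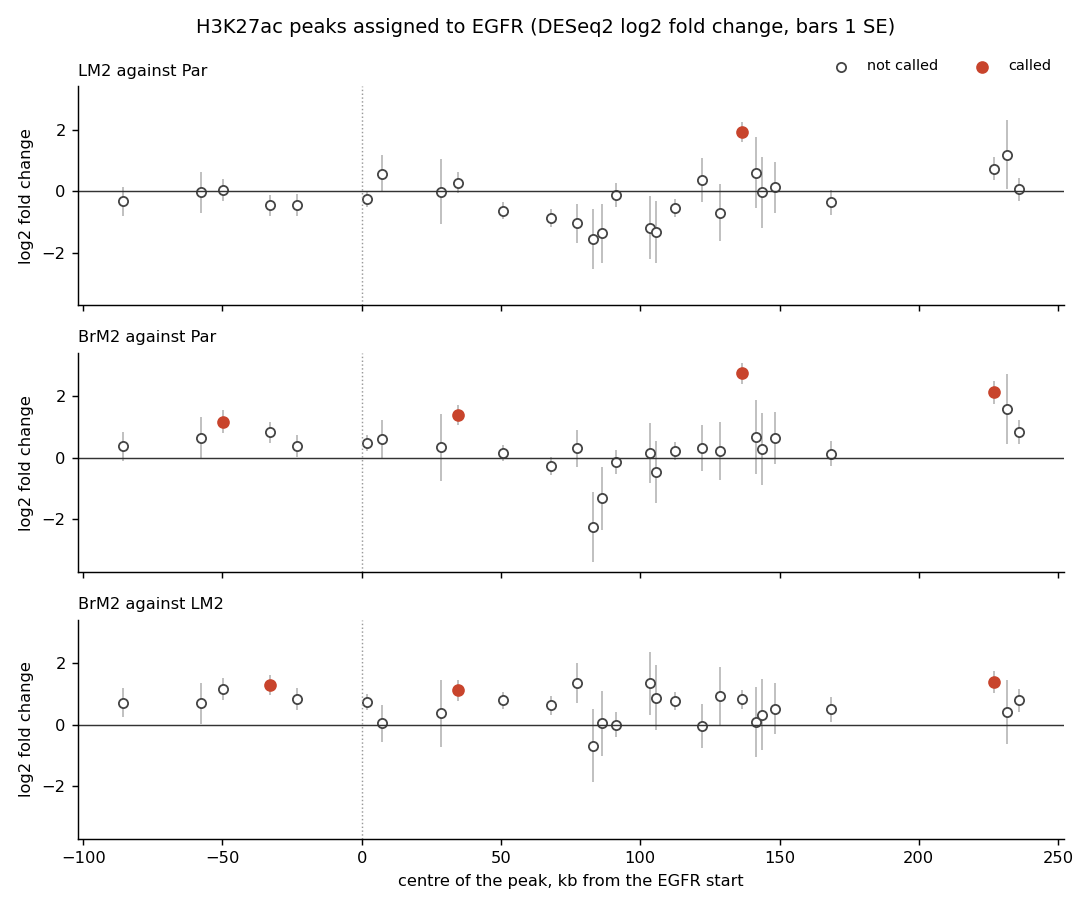
DESeq2 log2 fold changes (bars 1 SE) of the 28 H3K27ac peaks assigned to EGFR against the distance of their centre from the canonical start, in kb. Filled points are called; 4 peaks are called higher in BrM2 against Par, 1 in LM2 against Par and 3 in BrM2 against LM2.

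At the EGFR start itself H3K27ac was 89.6 and 104 CPM in Par and 80.5 and 88.8 in LM2, compared with 139 and 129 in BrM2. BrM2 lay above both other lines, at a log2 fold change of 0.47 ± 0.26 against Par (adjusted p = 0.38) and 0.73 ± 0.26 against LM2 (adjusted p = 0.105, and 0.00908 with the block). Summed over the 28 EGFR peaks, H3K27ac was 569 ± 23.6 CPM in Par, 490 ± 66.9 in LM2 and 813 ± 8.45 in BrM2 (mean ± SD, n = 2). These sums show BrM2 as the line with the most H3K27ac around EGFR.

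For BrM2 against LM2, 25 of the 28 EGFR peaks had a log2 fold change above 0, with a median of 0.72 (-0.02 over all peaks), and with the replicate block 8 were called higher and 0 lower, where 3.65% and 2.52% of all peaks were. Against Par the median was 0.36 in BrM2 and -0.20 in LM2. In LM2 the EGFR peaks went both ways: the lowest value was -1.56, and a peak at chr7:55149359-55160283 was called lower with the block (adjusted p = 0.0125) and by edgeR without it, but not by DESeq2 without it (log2 -0.89 ± 0.29, adjusted p = 0.0598).

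The wider region moved with these values. The median of 11 other H3K27ac peaks within 2.5 Mb of EGFR was 0.58 for BrM2 against LM2, 0.17 for BrM2 against Par and -0.53 for LM2 against Par. After removal of 5 Mb window medians, which the EGFR peaks themselves enter, the EGFR median was -0.07 for BrM2 against LM2 and -0.04 for BrM2 against Par, and the 3 calls against LM2 were lost (log2 0.34 to 0.58). The peaks at 137, 227 and 35 kb kept their calls against Par, at log2 2.35, 1.73 and 0.99 in BrM2. The call of BrM2 against Par at chr7:55034085-55039933 was lost (log2 0.78, adjusted p = 0.272). What these window medians stem from was not tested.

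At EREG H3K27ac was lower in BrM2, as was H3K4me3. At chr4:75257963-75264479, 30 kb past the EREG start, H3K27ac was 47.4 and 33.7 CPM in Par, 24.7 and 24.5 in LM2 and, for BrM2, 13.8 and 13.5. The lines formed descending steps with no overlap. The EREG value was 0.337 times that of Par in BrM2 (log2 -1.57 ± 0.36, adjusted p = 0.00113) and 0.579 times in LM2 (log2 -0.79 ± 0.34, adjusted p = 0.23).

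This EREG call was lost without Par replicate 1 (log2 -1.30, adjusted p = 0.143) and without BrM2 replicate 1 (log2 -1.57, adjusted p = 0.122), and it held after removal of window medians (log2 -1.16, adjusted p = 0.0288). The EREG promoter peak was broad, 17970 bp, and held 184 and 137 CPM in Par and 136 and 131 in LM2, compared with 105 and 95.2 in BrM2. It fell short of a call for BrM2 against Par (log2 -0.68 ± 0.27, adjusted p = 0.128), and was called with the block (adjusted p = 0.0149).

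AREG was lower at both of its named distal H3K27ac peaks, each in a different comparison. The peak at chr4:75364545-75372772, 58 kb past the start, held 59.8 and 47.8 CPM in Par, 26.4 and 27.7 in LM2 and, for BrM2, 31.9 and 29.6 (log2 -1.06 ± 0.31 for LM2 against Par, adjusted p = 0.0211). Par stood above both sub-populations there, and BrM2 against Par was not called without the block but was with it (adjusted p = 0.0448). The peak at chr4:75336976-75340356, 28 kb past the start, held 18.5 and 15.4 CPM in Par and 9.46 and 10.1 in LM2, compared with 7.39 and 4.01 in BrM2 (log2 -1.51 ± 0.49 for BrM2 against Par, adjusted p = 0.0404). Each of these 2 calls was lost without any 1 of the 6 libraries (adjusted p of 0.0535 to 0.498 for the first and 0.0909 to 0.454 for the second) and after removal of window medians (log2 -0.54 and -1.11).

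BTC lies in the same stretch of chromosome 4 and had 6 H3K27ac peaks, 0 of them called in any comparison by DESeq2, with or without the block, or by edgeR without it (edgeR with the block called 1, 1 and 0 for LM2 against Par, BrM2 against Par and BrM2 against LM2, and 1 had an unadjusted p under 0.05, for BrM2 against Par). All 6 had negative log2 fold changes against Par, with medians of -0.78 in LM2 and -0.91 in BrM2. Its promoter peak held 7.53 and 11.2 CPM in Par, 5.58 and 5.59 in LM2 and, for BrM2, 4.59 and 6.02. Summed H3K27ac was 52.0 ± 0.65 CPM in Par, 31.2 ± 5.53 in LM2 and 27.8 ± 5.39 in BrM2 at BTC, and 208 ± 43.2, 164 ± 4.98 and 118 ± 6.41 at EREG (mean ± SD, n = 2).

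Other peaks of this region were lower in the sub-populations as well. Within 2.5 Mb of EREG, 33 other H3K27ac peaks had a median log2 fold change of -0.55 in LM2 and -0.50 in BrM2 against Par. After removal of 5 Mb window medians the medians for EREG, AREG and BTC in BrM2 against Par were -0.36, -0.53 and -0.52, and that of EREG in LM2 against Par turned to 0.11.

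**Figure D3:**
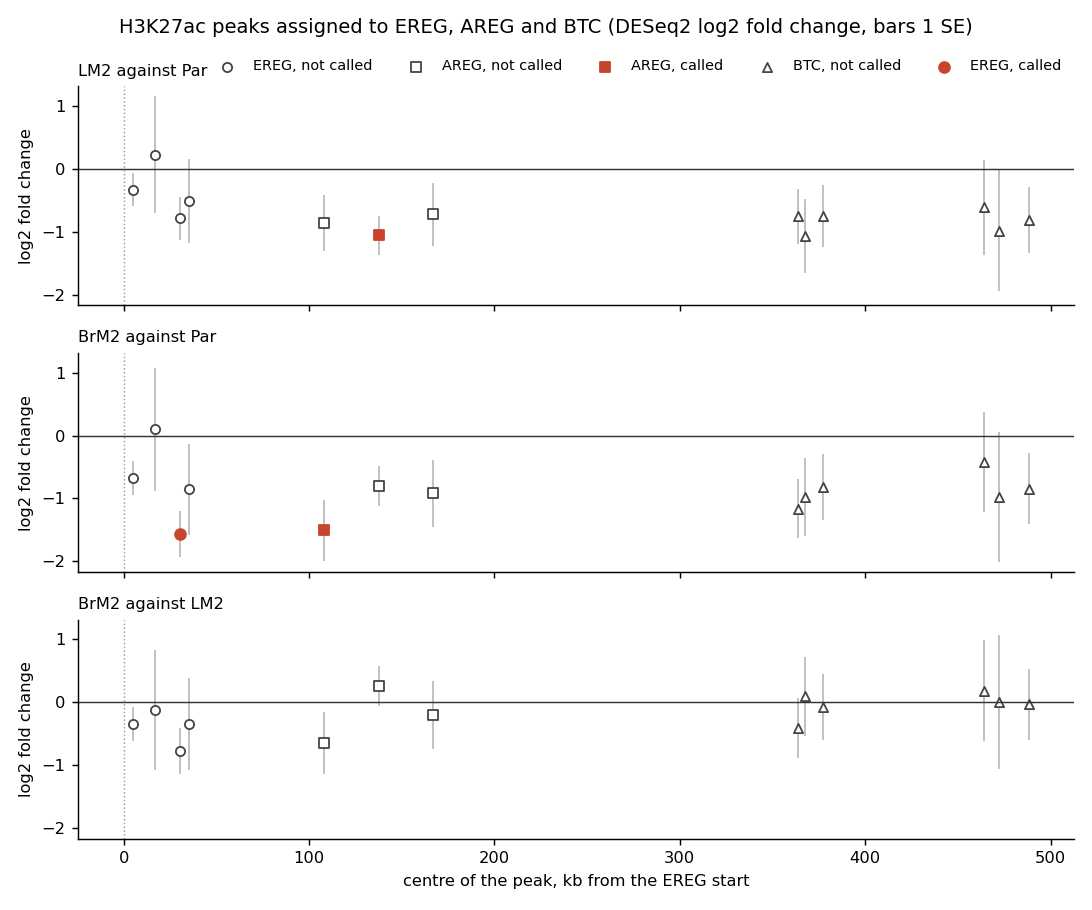
DESeq2 log2 fold changes (bars 1 SE) of the H3K27ac peaks assigned to EREG (4), AREG (3) and BTC (6), against the distance of their centre from the EREG start, in kb. Filled points are called; all BTC and AREG values against Par lie below 0.

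NRG1, which encodes the neuregulins that bind ERBB3 and ERBB4, showed the opposite direction. Its called peak lies at -240.4 kb from the canonical start, inside longer NRG1 transcripts, and held 28.7 and 21.4 CPM of H3K27ac in Par and 43.3 and 47.9 in LM2, compared with 78.3 and 64.2 in BrM2. The lines formed ascending steps. This NRG1 peak also lies outside 100 kb when only the gene's 5-prime end is used. BrM2 was 2.85-fold above Par (log2 1.51 ± 0.31, adjusted p = 0.000139), a call lost only without BrM2 replicate 1 (log2 1.37, adjusted p = 0.0904) among the alternative fits. LM2 against Par gave a log2 fold change of 0.79 ± 0.31 (adjusted p = 0.158, and 0.0461 with the block).

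The NRG1 promoter held 26.7 and 32.9 CPM of H3K27ac in Par, 39.5 and 39.1 in LM2 and, for BrM2, 51.0 and 56.1, at a log2 fold change of 0.85 ± 0.31 for BrM2 against Par (adjusted p = 0.0832, and 0.0198 with the block). Of the 34 NRG1 peaks, 28 were above 0 in LM2 and 25 in BrM2 against Par. Their sum was 285 ± 35.5 CPM in Par, 375 ± 12.1 in LM2 and 438 ± 37.9 in BrM2 (mean ± SD, n = 2). The median of 16 other peaks within 2.5 Mb was 0.04 in LM2 and 0.15 in BrM2 against Par. Over the 34 NRG1 peaks the median log2 fold change against Par was 0.33 in LM2 and 0.45 in BrM2. After removal of 5 Mb window medians it was 0.20 in LM2 and 0.08 in BrM2.

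ERBB4 had 1 called H3K27ac peak, chr2:212916575-212918463, which lies in intron 2, 486 kb past the start. The peak was assigned to ERBB4 through a transcript start inside the gene, and it lies outside 100 kb of the canonical start. It held 7.07 and 6.79 CPM in Par and 17.2 and 15.2 in LM2, compared with 2.29 and 5.51 in BrM2, from 9 to 111 raw counts. LM2 stood above Par and Par above BrM2. BrM2 against LM2 gave a log2 fold change of -2.09 ± 0.55 (adjusted p = 0.0101), and LM2 against Par one of 1.16 ± 0.49 (adjusted p = 0.219). The call was lost without LM2 replicate 1 (log2 -1.99, adjusted p = 0.343), LM2 replicate 2 (-2.15, 0.182) and BrM2 replicate 1 (-1.48, 0.803).

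At the ERBB4 promoter H3K27ac was low, at 3.13 to 8.89 CPM over the 6 libraries, and the groups overlapped. The promoter H3K4me3 and the intronic H3K27ac of ERBB4 were thus both highest in LM2.

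The 24 H3K27ac peaks of HBEGF, TGFA, ERBB2 and ERBB3 held 0 calls in any comparison by DESeq2, with or without the block, or by edgeR without it. For LM2 against Par, BrM2 against Par and BrM2 against LM2, 0, 1 and 1 had an unadjusted p under 0.05, and edgeR with the block called 0, 1 and 1. HBEGF, the heparin-binding ligand, held 25.8 and 31.6 CPM at its promoter in Par, 34.7 and 40.4 in LM2 and, for BrM2, 32.1 and 37.1. TGFA held 37.9 and 41.2 CPM in Par and 30.1 and 39.1 in LM2, compared with 35.9 and 34.6 in BrM2. At HBEGF both Par libraries lay below the other 4, and at TGFA Par lay above BrM2 while LM2 overlapped both. At the strongest distal TGFA peak, chr2:70820712-70826281, the 6 libraries ranged from 40.8 to 55.9 CPM. Over the TGFA peaks the median log2 fold change for BrM2 against Par was -0.15, and -0.62 after removal of 5 Mb window medians.

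ERBB3 was weakly marked, with 3 H3K27ac peaks of 1088 to 1997 bp and at most 9.66 CPM on average. The ERBB3 sums were 15.1 ± 0.752 CPM in Par, 18.6 ± 0.00779 in LM2 and 23.4 ± 3.12 in BrM2 (mean ± SD, n = 2). ERBB2 sums were 53.0 ± 8.49, 55.3 ± 11.6 and 50.2 ± 0.653, with overlapping groups. A p above the threshold does not show that these genes are equal between lines, since with 2 replicates the SE at their promoters was 0.31 to 0.70 on the log2 scale.

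**Figure D4:**
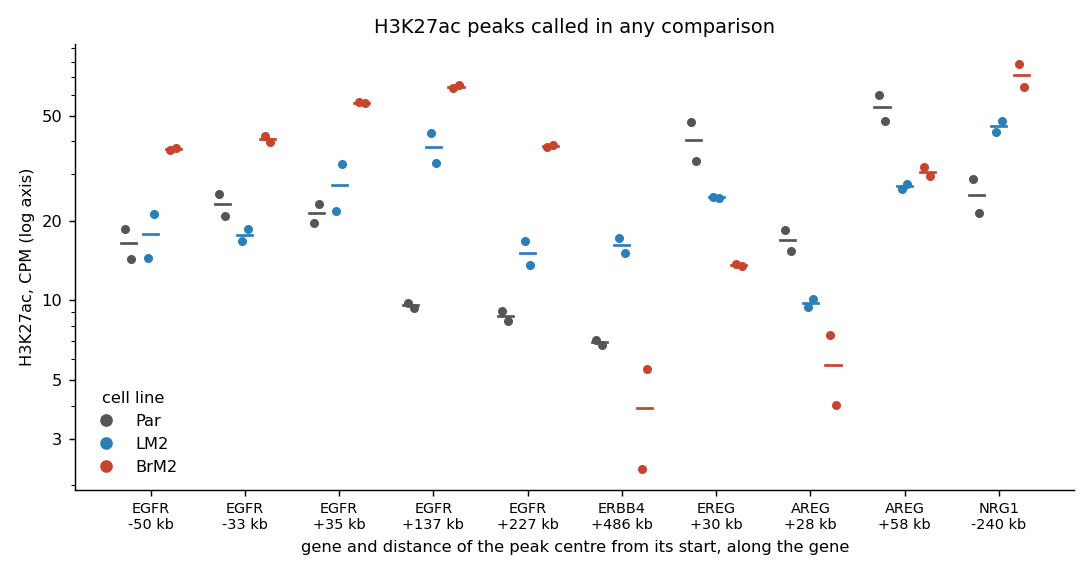
H3K27ac of the 10 peaks called in any comparison, in CPM on a log axis, with the distance of the peak centre from the canonical start. Points are the 2 libraries of each line and bars their mean; BrM2 is highest at the 5 EGFR peaks and at NRG1 and lowest at EREG, ERBB4 and 1 of the AREG peaks.

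At the promoters of the other pathway genes the number of H3K4me3 calls depended on the replicate block. Of 37 genes, 35 had an H3K4me3 peak within 2 kb of a start, while the ligand genes EGF and EPGN had none. For LM2 against Par 1 was called higher and 0 lower, and for BrM2 against Par and BrM2 against LM2 0 were called by DESeq2 or edgeR without the block (2 and 1 at an unadjusted p under 0.05). With the block the counts higher and lower were 2 and 5, 2 and 9, and 3 and 9, in all 7, 11 and 12 of 35, and thus larger shares than the 14.4%, 17.7% and 22% of all H3K4me3 peaks, a difference that was not tested. For H3K27ac at promoters DESeq2 called 0 of 35 in each comparison (1, 2 and 4 at an unadjusted p under 0.05), and edgeR 1, 1 and 0, all without the block. DESeq2 called 3.63%, 5.29% and 2.94% of all H3K27ac peaks there. With the block DESeq2 called 2, 0 and 2 of the 35, against 5.44%, 8.13% and 6.17% of all H3K27ac peaks.

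The called gene was NRG4, an ERBB4 ligand, with 24.1 and 32.0 CPM of H3K4me3 in Par, 57.4 and 62.1 in LM2 and, for BrM2, 31.6 and 39.5 (log2 1.13 ± 0.34 for LM2 against Par, adjusted p = 0.0352). Its peak shares a start region with TMEM266. LM2 thus held the highest H3K4me3 at both ERBB4 and NRG4, of which the first was called only with the block. Other ligand genes did not share this order. NRG2 was higher than Par in both sub-populations, at log2 0.90 for LM2 and 0.77 for BrM2, and their libraries overlapped. DESeq2 called both NRG2 differences only with the block (adjusted p = 3.08e-07 and 7.86e-06). NRG3, at a mean of 0.953 CPM, was highest in BrM2, and at NRG1 the LM2 and BrM2 libraries overlapped. Whether ERBB4 and NRG4 change together was not tested. The 4 shedding genes, the 8 adaptors, the 13 feedback inhibitors and the 7 target genes had 0 calls for H3K4me3 without the block by DESeq2 or edgeR, or at an unadjusted p under 0.05. With the block DESeq2 called 5, 10 and 11 of their 32 peaks, where 14.4%, 17.7% and 22% of all H3K4me3 peaks were called.

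As a check of the cell type, all 6 claudin-low and mesenchymal marker genes had an H3K4me3 promoter peak, with sums of 837 to 1153 CPM per library. The 9 luminal markers all had one at lower sums of 158 to 298 CPM, highest in BrM2. Against Par, ESR1 was called higher and CLDN4 lower in both LM2 (log2 2.52 and -3.44) and BrM2 (log2 1.62 and -2.04), and FOXA1 and CLDN7 higher in BrM2 (log2 1.45 and 1.28). Of the 3 leukocyte and 3 endothelial markers, 0 had an H3K4me3 peak. For H3K27ac, 1 endothelial marker, CDH5, had a promoter peak, at a mean of 30.2 CPM, and 0 leukocyte markers did. Library totals in peaks were 3489607 to 4581712 for H3K4me3 replicate 1, 6714331 to 9839629 for replicate 2, and 1994996 to 6450028 for H3K27ac, the lowest being BrM2 replicate 2. The part of depth and of luminal markers in the differences was not tested.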

How the data were processed

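ChIP-seq libraries of H3K4me3 and H3K27ac from 3 lines were used, with 2 biological replicates per line and mark (the 3 input samples were not used here). The authors mapped the reads with Bowtie2 (build hg19), handled duplicates and filters with Picard and SAMtools, called broad peaks with MACS2 on merged libraries, and deposited raw read counts per consensus peak, made with featureCounts v1.6.0 after a 150-base extension, per the file headers. Peaks of 1 line can be underrepresented in merged calls. Fixation was 10 min per the labels. CPM are counts per 1000000 counts in peaks.

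Starts came from GENCODE release 44 on GRCh37, and sequences from that genome (those of 2 called peaks are not reported here). Members and gene lists were chosen with earlier results of these data known. Named peaks were, for each gene, the H3K4me3 and H3K27ac promoter peak with the highest mean CPM and up to 3 called distal H3K27ac peaks by p, or else the highest distal peak. DESeq2 1.42.0 (Wald test, cell line as the only term, 6 libraries per mark, 3 residual degrees of freedom, default independent filtering, Benjamini-Hochberg over the whole table) gave the p-values, except where the block or another alternative is named. Calls were made at an adjusted p under 0.05. Fits were tested on simulated H3K4me3 counts with the same spread at every peak and no replicate effect. That simulation cannot show how the fits perform with such an effect or on H3K27ac. Alternatives were a replicate block, edgeR 4.0.16, TMM factors, loess offsets, 5 Mb window medians, other count filters, pairwise fits, left-out libraries and other peak assignments.

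The main fit had no term for the replicate number. Only in the fits with the replicate block were libraries of the same number treated as paired. The ground for this was the titles and the correlation of deviations between same-numbered libraries. It was 0.843, 0.788 and 0.825 for H3K4me3 over 13309 peaks, and 0.407, 0.607 and 0.480 for H3K27ac over 20122 peaks. Replicates of a line differed beyond sampling noise (chi-square per degree of freedom 2.29 to 13.0). No source used here names batches.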

Additional observations from a re-analysis of the deposited data

Results flagged for a closer look

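In 5 peaks the change against Par differed between BrM2 and LM2 by the DESeq2 test of that difference. At the EREG promoter H3K4me3 was lower in BrM2 (log2 -1.22, adjusted p = 0.033), where LM2 against Par was 0.06. H3K27ac was higher in BrM2 at EGFR peaks 33 kb before the start (log2 1.28, adjusted p = 0.00897), 35 kb past it (log2 1.11, adjusted p = 0.033) and 227 kb past it (log2 1.40, adjusted p = 0.00661). In an intron of ERBB4 it was lower in BrM2 (log2 -2.09, adjusted p = 0.0101), with 1.16 for LM2 and -0.93 for BrM2 against Par. Each of the 5 calls was lost without some of the single libraries, as given with the peaks above, and their causes were not tested.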

How the results depend on the processing

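The counts of called H3K4me3 peaks (0, 1 and 1 for LM2 against Par, BrM2 against Par and BrM2 against LM2) became 1, 2 and 2 with the replicate block and 3, 3 and 3 with edgeR and the replicate block. The latter 2 counts became 0 and 0 after removal of 5 Mb window medians, 0 and 0 in fits of only the lines compared, and 0 to 0 without each library. The counts of H3K27ac peaks (2, 7 and 4) became 4, 11 and 9 with the replicate block and 11, 19 and 17 with edgeR and the replicate block. With window medians removed they were 1 for LM2 against Par and 1 for BrM2 against LM2, with the gene's own start 1, 4 and 2, and with the shorter distance 1 for LM2 against Par. Without single libraries the H3K27ac counts were 1 to 1, 2 to 5 and 0 to 3. The other 55 counts stayed within 1.5 times. No log2 fold change of a named peak turned to a call in the other direction under any alternative. Apart from the changes named with the peaks, the block in the DESeq2 fit changed no call of a named peak. The causes were not tested. Few raw counts lie behind the AREG H3K4me3 peak (8 to 18 per library) and the H3K27ac promoter peaks of ERBB3 (11 to 24) and ERBB4 (12 to 47), and 75 of the 105 H3K27ac peaks had an adjusted p for LM2 against Par.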
